A study of Homo sapiens with 10 samples.

Results

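The genes described here are 10 enzymes and transporters around oxaloacetate and malate and at the release of free glucose, measured by RNA-seq in the human prostate cancer line DU145, which was established from a brain metastasis. They form a list of named genes that were found by gene symbol, and all 10 had a row among the 13527 features of the deposited table. One line carried a short hairpin RNA against the transcription factor gene SOX4 (shSOX4, 3 libraries), and the control line carried a scramble hairpin (shCon, 3 libraries). Both lines were kept in DMEM with serum and received no other treatment. The sources used here do not say whether each line is a single clone, or whether libraries within a group are separate cultures. The p-values below therefore compare groups with the library-to-library spread, which may be technical. The study names PCK2 beside SOX4 in its title, and the comparison asks how PCK2 and the reactions next to it stood when SOX4 was lowered. Another 4 samples, measured by ATAC-seq with SOX4 overexpressed or with a vector, were not analysed here.

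Oxaloacetate is a meeting point of central metabolism. Pyruvate carboxylase makes it from pyruvate in the mitochondrion, malate dehydrogenases exchange it with malate, aspartate transaminases exchange it with aspartate, and phosphoenolpyruvate carboxykinase removes it towards gluconeogenesis. Malic enzymes return malate to pyruvate. In liver and kidney the last step of gluconeogenesis is the release of glucose from glucose 6-phosphate, which needs a transporter into the endoplasmic reticulum and a phosphatase inside it.

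The libraries held 31189910 to 43361609 counts. SOX4, the targeted gene, had 4.55, 6.44 and 6.01 CPM (read counts scaled to a common library size with TMM factors) in shSOX4 libraries 1, 2 and 3, against 12.9, 10.1 and 8.48 CPM in shCon libraries 1, 2 and 3. The groups did not overlap, with a fall by 0.89 on the log2 scale (edgeR adjusted p = 0.0111), but without shCon 1 the value was -0.71 and did not pass (adjusted p = 0.0598, edgeR). SOX4 also did not pass in limma on log2(FPKM + 1) (adjusted p = 0.0523) or against a 1.5-fold change in edgeR (adjusted p = 0.208). The library pair shCon 3 and shSOX4 1 stood apart from the other 4 on the second principal component, which held 15.7% of the variance, so values without both are given below. All 5 prostate epithelial markers had values. The keratin genes KRT8 and KRT18 were abundant in every library. KRT8 had 4363 to 4744 CPM in shSOX4 and 1490 to 2264 CPM in shCon. KRT18 had 2048 to 2454 CPM in shSOX4 and 978 to 1367 CPM in shCon. KRT19 had 391 to 498 CPM in shSOX4 and 469 to 742 CPM in shCon, with overlap. EPCAM was low and overlapped, with 5.34 to 7.382 CPM in shSOX4 and 7.375 to 15.6 CPM in shCon. CDH1 was low too and did not overlap, with 2.41 to 4.74 CPM in shSOX4 and 8.66 to 10.6 CPM in shCon. Of 6 fibroblast markers 3 had values, and their sum was 9.55 to 16.0 CPM in shSOX4 and 1.69 to 2.48 CPM in shCon. Of 4 endothelial markers 1 had values, CDH5, with 4.70 to 6.62 CPM in shSOX4 and 0.525 to 0.942 CPM in shCon. Of 5 leukocyte markers 2 had values, CD14 and CD68, with sums of 46.3 to 56.5 CPM in shSOX4 and 97.4 to 116 CPM in shCon. CD68 made up most of the sum in every library and was lower in shSOX4 without overlap. The CD14 values were low and overlapped between the groups, so the lower sum was that of CD68 alone. The part of these markers in the results below was not tested. In bulk RNA, fewer cells that express a gene and less RNA of it per cell cannot be told apart.

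Of the 10 genes, 5 fell and 1 rose at an adjusted p under 0.05 in edgeR's quasi-likelihood test, and 4 did not pass. Across all features 32.8% passed, 15.8% downward and 17.0% upward. The genes that fell were PCK2, SLC37A4, GOT1, GOT2 and MDH2, and the gene that rose was PC. The median log2 fold change was -0.47 over the 10 genes and -0.01 over all features. The shSOX4 and shCon values did not overlap for the 6 genes that passed, where 47.0% of all features showed no overlap. Without both shCon 3 and shSOX4 1, 6 fell and 2 rose, with 40.9% of all features called. The counts moved with single libraries. Leaving out shCon 2 or shSOX4 2 left 2 that fell, and leaving out shCon 1 or shSOX4 1 gave 2 that rose. Over all features the count was 4431, and 2509 without shSOX4 2. Tested against a change of 1.5-fold in edgeR, PC still rose and PCK2 fell, and none of the other 8 genes passed.

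**Figure D1:**
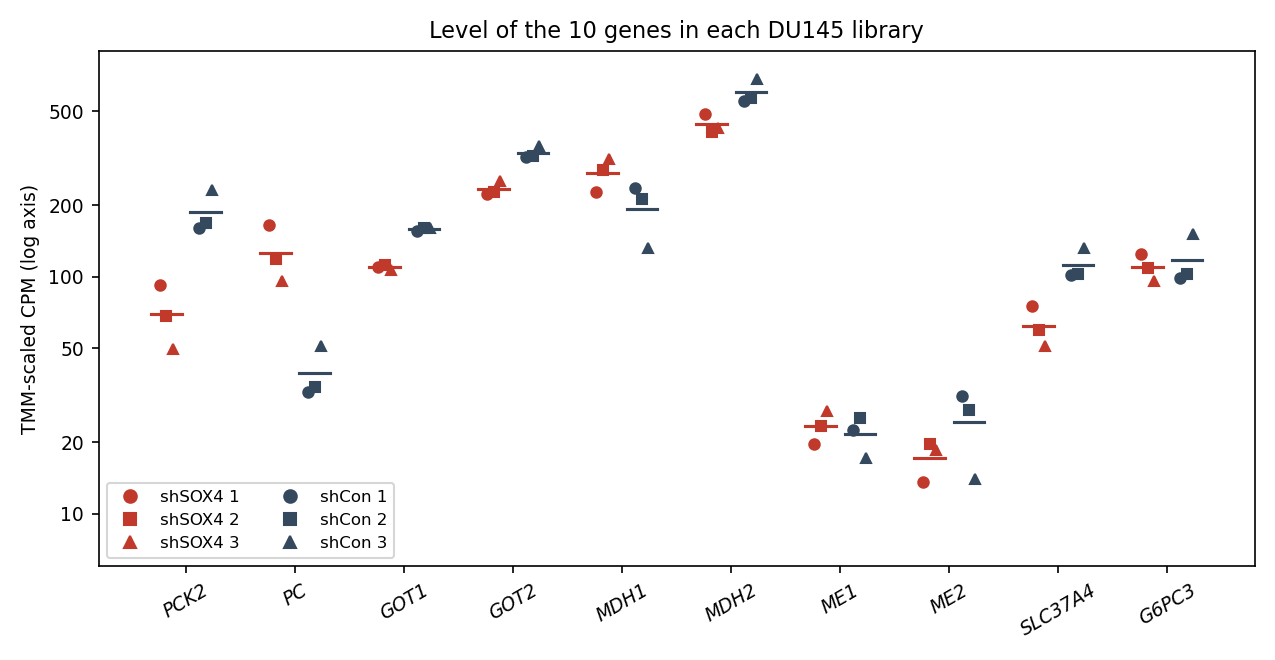
TMM-scaled CPM (log axis) of each gene in the 3 shSOX4 libraries (red) and the 3 shCon libraries (dark), with marker shape giving the replicate number and a line at the group mean. All shSOX4 points lie below the shCon points for PCK2 and SLC37A4 and above them for PC, while MDH1, ME1, ME2 and G6PC3 overlap.

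PCK2 (ENSG00000100889, chromosome 14) encodes the mitochondrial form of phosphoenolpyruvate carboxykinase, the exit from oxaloacetate to phosphoenolpyruvate. Its level was 92.2, 68.1 and 49.4 CPM in shSOX4 libraries 1, 2 and 3, against 161, 169 and 233 CPM in shCon libraries 1, 2 and 3. The highest shSOX4 value was below the lowest shCon value. Means were 69.9 ± 21.5 CPM in shSOX4 and 188 ± 39.6 CPM in shCon (SD, n = 3 each). PCK2 fell by 1.43 on the log2 scale (SE 0.223, edgeR adjusted p = 0.000375), so 37.2% of the control level was left, with a 95% interval of 26.8 to 51.8%. The call held in all 18 alternative fits, 1 of which repeats the main fit, with values from -1.66 to -1.22 on the log2 scale. RefSeq places the protein-coding gene NRL in overlap with PCK2, and NRL was not analysed here.

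PC (ENSG00000173599, chromosome 11) encodes pyruvate carboxylase, the entry into oxaloacetate from pyruvate. It had 165, 119 and 95.9 CPM in shSOX4 libraries 1, 2 and 3, against 32.7, 34.2 and 51.2 CPM in shCon libraries 1, 2 and 3. Every shSOX4 library was above every shCon library. The log2 fold change was 1.68 (SE 0.229, edgeR adjusted p = 0.00012), 3.21-fold higher in shSOX4 with an interval of 1.19 to 2.17 on the log2 scale. This call too held in all 18 alternative fits (1.46 to 1.92). RefSeq places LRFN4, a synaptic adhesion gene, within the span of PC, and the sources used here do not say whether counting used strand. LRFN4 averaged 94.4 ± 15.9 CPM in shSOX4 and 101 ± 34.1 CPM in shCon (SD, n = 3 each). Its log2 fold change was -0.09 and did not pass (edgeR adjusted p = 0.772).

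The promoters of PCK2 and PC are shown as those of the genes with the largest fall and the largest rise of the 10, and that of GOT1 because it alone held a C/EBP-ATF element, the kind of site that ATF4 binds. The windows are from RefSeq, build GRCh38.p14, and run from 250 bases before the transcription start to 50 after it, read on the gene's own strand. Capitals mark CCAAT boxes in PCK2 and PC and the C/EBP-ATF element in GOT1, whose own CCAAT boxes are left in lower case. PCK2 lies at chr14:24094061-24094360 (plus strand), the first of 3 PC windows at chr11:66958334-66958633 (minus strand) and GOT1 at chr10:99430575-99430874 (minus strand).
PCK2: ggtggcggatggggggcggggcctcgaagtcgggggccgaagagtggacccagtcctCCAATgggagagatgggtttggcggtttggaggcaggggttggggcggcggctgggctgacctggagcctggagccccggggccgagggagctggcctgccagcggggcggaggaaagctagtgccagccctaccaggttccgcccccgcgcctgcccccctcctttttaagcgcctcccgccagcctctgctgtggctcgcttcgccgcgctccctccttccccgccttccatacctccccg
PC: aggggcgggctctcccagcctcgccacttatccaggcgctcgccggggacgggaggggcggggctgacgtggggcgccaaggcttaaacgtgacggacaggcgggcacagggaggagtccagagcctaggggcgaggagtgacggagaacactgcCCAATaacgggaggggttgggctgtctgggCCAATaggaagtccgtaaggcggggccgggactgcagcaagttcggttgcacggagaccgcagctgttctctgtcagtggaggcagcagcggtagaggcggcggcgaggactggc
GOT1: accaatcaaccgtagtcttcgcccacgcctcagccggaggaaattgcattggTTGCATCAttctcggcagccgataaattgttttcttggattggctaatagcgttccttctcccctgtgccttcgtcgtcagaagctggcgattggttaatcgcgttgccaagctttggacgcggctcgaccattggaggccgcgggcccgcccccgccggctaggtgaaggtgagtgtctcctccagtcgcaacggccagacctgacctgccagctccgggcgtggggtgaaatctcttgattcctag

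All 10 genes matched this table, with 16 windows. The C/EBP-ATF element was searched as TGATGNAA on both strands, and 3.62% of all 35116 windows of this length hold it. In GOT1 the match starts 198 bases before the transcription start. The SOX element was searched as AACAAAG or AACAATG on both strands, which 8.22% of all windows hold, and 0 of the 10 genes had it in these windows. The CCAAT box, searched as CCAAT on both strands, was found in 9 of the 16 windows, which belong to 7 genes, and in 34.6% of all windows. The E-box, searched as CACGTG, was found in 3 of the 16 windows, which all belong to G6PC3, and in 7.26% of all windows. These letters are matches in short windows and not measured binding.

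PCK2 and PC went opposite ways between the groups, yet they varied together within each group. Scaled to length, PCK2 had 36.8, 29.0 and 20.9 FPKM in shSOX4 libraries 1, 2 and 3, and PC had 37.2, 28.6 and 22.2 FPKM in the same libraries. In shCon libraries 1, 2 and 3, PCK2 had 69.0, 71.3 and 96.4 FPKM and PC had 7.93, 8.24 and 11.0 FPKM. The FPKM ratio of PCK2 to PC was thus 0.991, 1.01 and 0.943 in the shSOX4 libraries and 8.70, 8.65 and 8.75 in the shCon libraries. The exit enzyme's transcript exceeded that of the entry enzyme in every shCon library and was level with it in the shSOX4 libraries.

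The ratio was steadier than either gene. By counts, its log2 value had an SD of 0.0813 within shSOX4 and 0.0674 within shCon. The SD of log2 CPM was 0.45 for PCK2 and 0.394 for PC within shSOX4, and 0.29 for PCK2 and 0.356 for PC within shCon. Both genes were highest in shSOX4 1 among shSOX4 libraries and highest in shCon 3 among shCon libraries. Those libraries lay above the other 2 of their group by 0.67 (shSOX4 1) and 0.50 (shCon 3) on the log2 scale for PCK2. For PC they lay above by 0.63 (shSOX4 1) and 0.61 (shCon 3). For SOX4 they lay below, with differences of -0.45 (shSOX4 1) and -0.43 (shCon 3). Over all features the interquartile range of the same difference was -0.31 to 0.28 for shSOX4 1 and -0.38 to 0.35 for shCon 3. The mean log2 ratio by counts was lower by 3.13 in shSOX4, an 8.75-fold difference. An exact two-sided permutation test over the libraries gave p = 0.1, the smallest that 3 against 3 allows, and p = 0.167 after Benjamini-Hochberg adjustment over the 5 gene pairs tested, so this test could not pass the threshold. Leaving out any single library gave differences from -3.17 to -3.08, and leaving out both shCon 3 and shSOX4 1 gave -3.18. A ratio steadier than either gene in both groups was also seen for SLC37A4 to G6PC3, but not for the rest of the pairs. Its log2 SD by counts was 0.0931 within shSOX4, against 0.28 for SLC37A4 and 0.191 for G6PC3. Within shCon it was 0.128, against 0.213 for SLC37A4 and 0.341 for G6PC3.

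**Figure D2:**
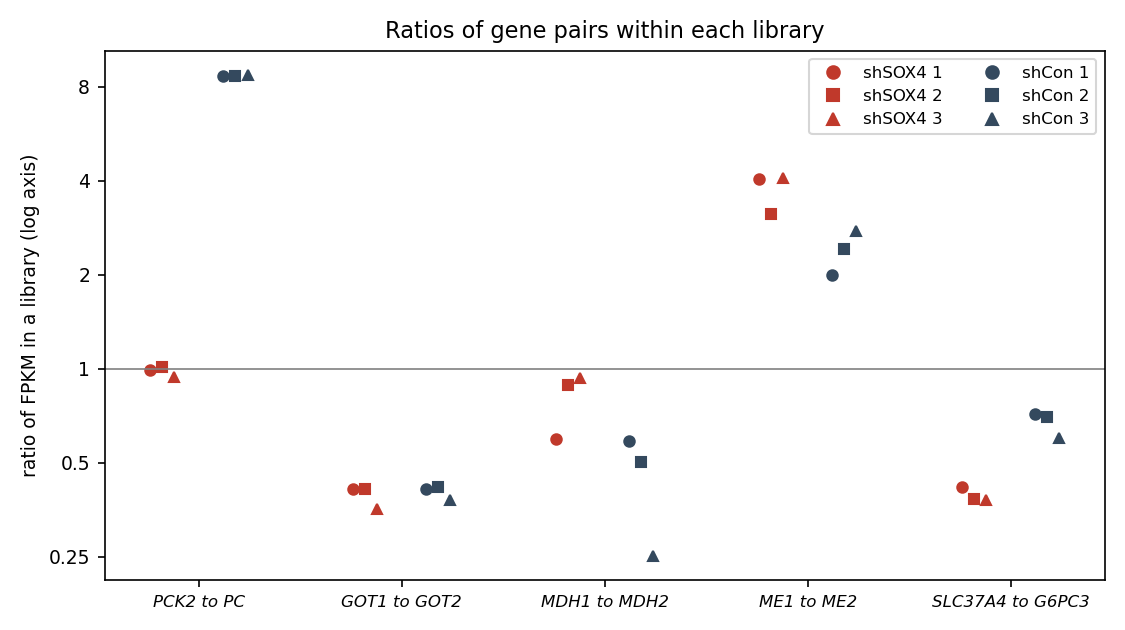
Ratio of deposited FPKM of 5 gene pairs within each library (log axis), shSOX4 in red and shCon in dark, with marker shape giving the replicate number. The ratio of PCK2 to PC is 0.943 to 1.01 in shSOX4 and 8.65 to 8.75 in shCon, and that of GOT1 to GOT2 overlaps between the groups.

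**Figure D3:**
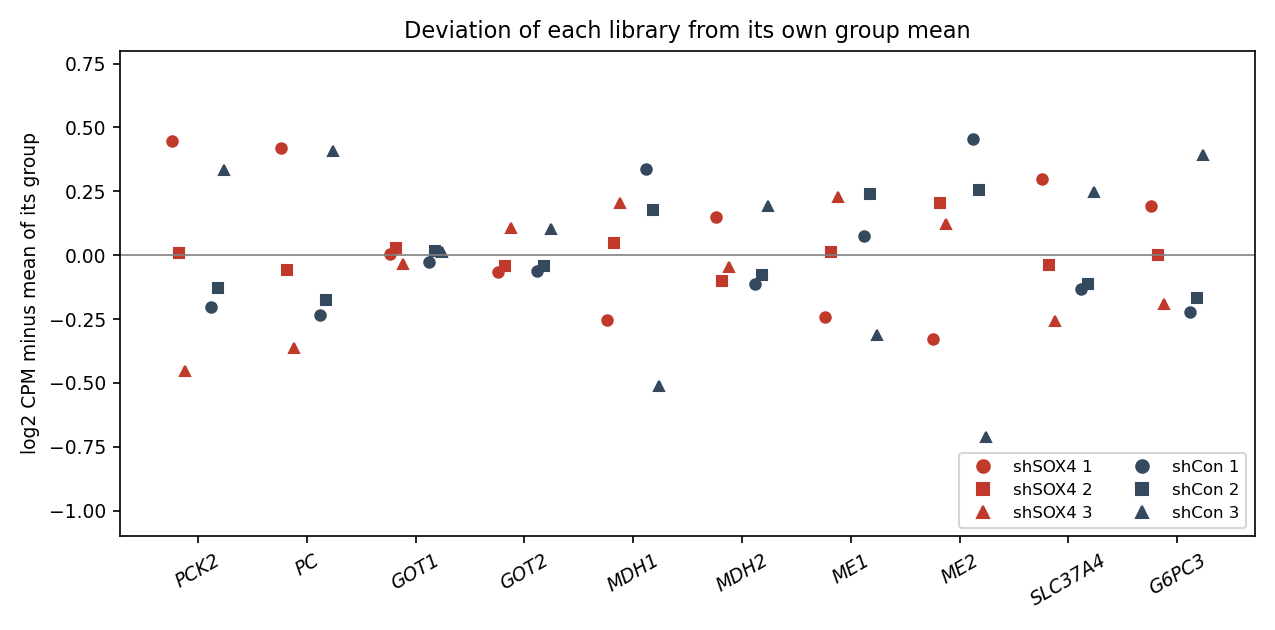
Deviation of log2 CPM of each library from the mean of its own group for the 10 genes, shSOX4 in red and shCon in dark. In shSOX4 1 and shCon 3, PCK2, PC, MDH2, SLC37A4 and G6PC3 lie above their group means and MDH1, ME1 and ME2 lie below.

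GOT1 (ENSG00000120053, chromosome 10) and GOT2 (ENSG00000125166, chromosome 16) encode the cytosolic and the mitochondrial aspartate transaminase. Both were lower in shSOX4 by nearly the same amount. GOT1 had 110, 112 and 107 CPM in shSOX4 libraries 1, 2 and 3, against 157, 161 and 161 CPM in shCon libraries 1, 2 and 3, the tightest values of the 10 genes. Its log2 value fell by 0.54 (SE 0.147, edgeR adjusted p = 0.0125). GOT2 had 224, 228 and 253 CPM in shSOX4 libraries 1, 2 and 3, against 320, 325 and 358 CPM in shCon libraries 1, 2 and 3. It fell by 0.51 (SE 0.149, edgeR adjusted p = 0.0187). Neither gene's groups overlapped. The calls are close to the threshold. GOT1 did not pass without shCon 2 (edgeR adjusted p = 0.0506) or shSOX4 2 (adjusted p = 0.0623), and GOT2 did not pass without shCon 2 (adjusted p = 0.058), shSOX4 1 (adjusted p = 0.0501) or shSOX4 2 (adjusted p = 0.0905). The FPKM ratio of GOT1 to GOT2 was 0.394 ± 0.0324 in shSOX4 and 0.403 ± 0.0214 in shCon (SD, n = 3 each). By counts the log2 ratio differed by -0.04 (exact two-sided permutation p = 0.7), and by 0.04 in the other direction without shSOX4 3.

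Of the malate dehydrogenases MDH2 fell, while MDH1 had a positive log2 fold change that did not pass. MDH2 (ENSG00000146701, chromosome 7), the mitochondrial enzyme that completes the tricarboxylic acid cycle by making oxaloacetate, had 486, 409 and 424 CPM in shSOX4 libraries 1, 2 and 3, against 552, 566 and 682 CPM in shCon libraries 1, 2 and 3. Its log2 value fell by 0.45 (SE 0.155, edgeR adjusted p = 0.0383). The groups did not overlap, but MDH2 did not pass once shCon 2 or shCon 3 was left out (edgeR adjusted p = 0.0806 in both fits). The same held when shSOX4 2 (adjusted p = 0.157) or shSOX4 3 (adjusted p = 0.12) was left out, and in limma on log2(FPKM + 1) (adjusted p = 0.0593). MDH1 (ENSG00000014641, chromosome 2), the cytosolic enzyme of the malate-aspartate shuttle, had 229, 282 and 315 CPM in shSOX4 libraries 1, 2 and 3, against 238, 213 and 132 CPM in shCon libraries 1, 2 and 3. The groups overlapped, since shCon 1 was above shSOX4 1. Its log2 fold change was 0.50 (SE 0.208), with an unadjusted p of 0.0291 and an adjusted p of 0.0759 in edgeR. In edgeR fits it passed without shCon 1 (adjusted p = 0.0355) or shSOX4 1 (adjusted p = 0.0211). With shCon 3 and shSOX4 1 both left out, it passed too (0.41, edgeR adjusted p = 0.0206). The value without shCon 3 was 0.29 (adjusted p = 0.195, edgeR).

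Within a library, the FPKM ratio of MDH1 to MDH2 was 0.597, 0.888 and 0.938 in shSOX4 libraries 1, 2 and 3, against 0.586, 0.504 and 0.251 in shCon libraries 1, 2 and 3. Every shSOX4 ratio was above every shCon ratio, although shSOX4 1 and shCon 1 were nearly level. By counts the mean log2 ratio was higher by 0.98 in shSOX4, a 1.98-fold difference (exact two-sided permutation p = 0.1, the smallest possible, and 0.167 after adjustment). Without shCon 3 the difference was 0.63. RefSeq places WDPCP, a ciliary gene, across MDH1, and its mean level was 1.90 CPM in shSOX4 and 2.64 CPM in shCon.

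**Figure D4:**
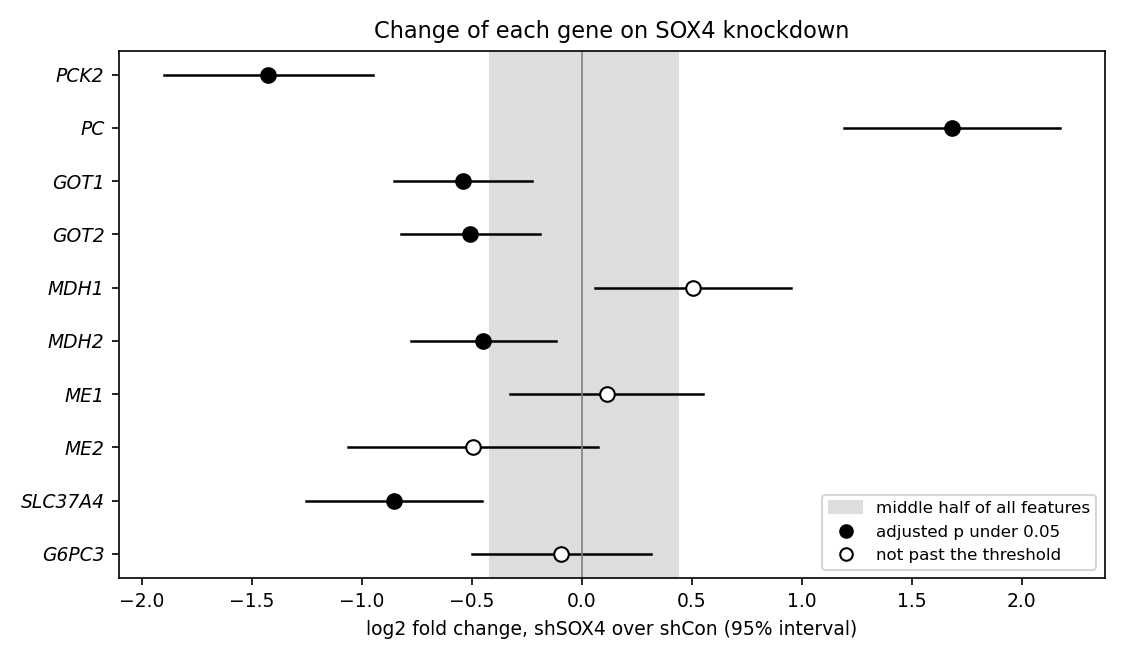
Log2 fold change of each gene, shSOX4 over shCon, with its 95% interval. Filled points have an adjusted p under 0.05 in edgeR, and the grey band is the interquartile range over all features (-0.42 to 0.44). PCK2 (-1.43), SLC37A4 (-0.85) and PC (1.68) have intervals wholly outside the band.

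The malic enzymes had the lowest FPKM of the 10 genes and neither passed. ME1 (ENSG00000065833, chromosome 6), the cytosolic enzyme that makes NADPH, had 19.6, 23.4 and 27.2 CPM in shSOX4 libraries 1, 2 and 3, against 22.5, 25.2 and 17.2 CPM in shCon libraries 1, 2 and 3. The groups overlapped, and the log2 fold change was 0.11 with a 95% interval of -0.33 to 0.55 (edgeR adjusted p = 0.7). ME2 (ENSG00000082212, chromosome 18), a mitochondrial malic enzyme, had 13.6, 19.7 and 18.5 CPM in shSOX4 libraries 1, 2 and 3, against 31.4, 27.4 and 13.99 CPM in shCon libraries 1, 2 and 3. The shCon 3 value lay within the shSOX4 range, and the log2 fold change was -0.49 with an interval of -1.06 to 0.08 (edgeR adjusted p = 0.167). Without shCon 3 it was -0.77 (adjusted p = 0.0104, edgeR), and without both shCon 3 and shSOX4 1 it was -0.62 (adjusted p = 0.00529). ME2 was also the gene whose deposited counts and FPKM fitted each other least well. After one factor per library, its count-to-FPKM ratio spanned 20.7%, against 9.06% for PCK2 and 0.0332 to 4.84% for the other 8 genes. The FPKM ratio of ME1 to ME2 was 3.76 ± 0.548 in shSOX4 and 2.40 ± 0.382 in shCon (SD, n = 3 each). Its log2 value by counts was higher by 0.55 in shSOX4 (exact two-sided permutation p = 0.2, adjusted p = 0.25), and by 0.36 without shCon 1.

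At the release of glucose the transporter gene fell and the phosphatase gene did not pass. SLC37A4 (ENSG00000137700, chromosome 11), which carries glucose 6-phosphate into the endoplasmic reticulum, had 75.2, 59.5 and 51.2 CPM in shSOX4 libraries 1, 2 and 3, against 101, 103 and 132 CPM in shCon libraries 1, 2 and 3. The groups did not overlap. Its log2 value fell by 0.85 (SE 0.187, edgeR adjusted p = 0.00385), leaving 55.3% of the control level with an interval of 41.9 to 73.0%. That call held in each of the 6 fits without 1 library. Its neighbour TRAPPC4, a trafficking complex gene that overlaps it in RefSeq, had a log2 fold change of 0.14 (edgeR adjusted p = 0.58).

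G6PC3 (ENSG00000141349, chromosome 17), the widely expressed glucose 6-phosphatase, had 125, 109 and 95.8 CPM in shSOX4 libraries 1, 2 and 3, against 98.6, 102 and 151 CPM in shCon libraries 1, 2 and 3. The groups overlapped, and the log2 fold change of -0.09 had an interval of -0.50 to 0.31 (edgeR adjusted p = 0.734). The FPKM ratio of SLC37A4 to G6PC3 was 0.393 ± 0.0209 in shSOX4 and 0.674 ± 0.0629 in shCon (SD, n = 3 each), without overlap. By counts its log2 value was lower by 0.79 in shSOX4 (exact two-sided permutation p = 0.1, the smallest possible, and 0.167 after adjustment).

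On the FPKM scale, which allows levels of different genes to be set side by side, the order differed between the groups. In shSOX4 it was MDH2 (mean 197 FPKM), MDH1 (157), GOT2 (89.4), G6PC3 (68.1), GOT1 (35.1), PC (29.3), PCK2 (28.9), SLC37A4 (26.9), ME1 (6.50) and ME2 (1.76). There the values of GOT1, PC, PCK2 and SLC37A4 overlapped between neighbours in the order, and those of all other neighbours did not. In shCon the order was MDH2 (mean 260 FPKM), GOT2 (126), MDH1 (115), PCK2 (78.9), G6PC3 (71.9), GOT1 (50.8), SLC37A4 (47.9), PC (9.06), ME1 (6.02) and ME2 (2.60). There GOT2, MDH1, PCK2 and G6PC3 overlapped between neighbours, as did GOT1 and SLC37A4. Among all features, the mean FPKM of PCK2 was above 81.0% of features in shSOX4 and 91.3% in shCon, and that of PC above 81.3% in shSOX4 and 61.1% in shCon.

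ATF4, a stress-response transcription factor that has PCK2 among its known targets in human cells, had 723, 629 and 675 CPM in shSOX4 libraries 1, 2 and 3, against 883, 993 and 985 CPM in shCon libraries 1, 2 and 3. It fell by 0.50 on the log2 scale (edgeR adjusted p = 0.0173), without overlap. The call was lost without shCon 2, shSOX4 2 or shSOX4 3, with adjusted p up to 0.0926 in edgeR, and also in limma on log2 FPKM with either pseudocount and against a 1.5-fold change.

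The genes with a level most like that of PCK2 over the 6 libraries, among 9790 named genes averaging 5 CPM or more, were ANKZF1 (Pearson r = 0.998), MARCHF2, DDIT4, DDAH2 and USP21. For PC they were ANKRD52 (r = 0.997), RANBP2, FKBP10, OASL and MOV10. These correlations run over 2 groups of 3 libraries and hold both the group difference and the shared deviation of shSOX4 1 and shCon 3. Genes picked in this way go in the direction of PCK2 or PC by the choice itself. Their edgeR values are therefore a description and no separate result. DDIT4, a stress-induced inhibitor of mTOR signalling, had 360, 277 and 236 CPM in shSOX4 libraries 1, 2 and 3, against 508, 553 and 660 CPM in shCon libraries 1, 2 and 3, and fell by 0.98 on the log2 scale (edgeR adjusted p = 0.00127). FKBP10, a collagen chaperone, had 133, 110 and 94.4 CPM in shSOX4 libraries 1, 2 and 3, against 54.7, 53.6 and 72.8 CPM in shCon libraries 1, 2 and 3, and rose by 0.90 (edgeR adjusted p = 0.00285). By that choice the remaining 8 genes too shared the direction of the gene they resembled. All passed edgeR's test, but USP21 did not without shCon 2, shSOX4 2 or shSOX4 3 (adjusted p up to 0.105). RANBP2 has near-identical gene copies, so its value is uncertain.

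In the authors' deposited table of the same comparison, the same 6 genes had a false discovery rate under 0.05, 1 upward and 5 downward. The authors' deposited table gives PCK2 a log2 fold change of -1.33 with a rate of 5.23e-08 and PC one of 1.58 with a rate of 6.58e-11. In the authors' deposited table MDH1 has 0.48 with a rate of 0.0528.

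Around these genes, 6 lists of neighbouring steps held 78 measured genes. At the fates of pyruvate, the substrate that pyruvate carboxylase shares with pyruvate dehydrogenase and lactate dehydrogenase, 7 of 15 measured genes rose and the other 8 did not pass (median log2 fold change 0.41). Over all features 17.0% rose and the median was -0.01. MPC1, a subunit of the mitochondrial pyruvate carrier, averaged 13.7 ± 2.43 CPM in shSOX4 and 5.07 ± 0.0853 CPM in shCon (SD, n = 3 each) and rose by 1.43 on the log2 scale (edgeR adjusted p = 0.000275). DLD, the lipoamide dehydrogenase shared by several dehydrogenase complexes, rose by 0.97 (edgeR adjusted p = 0.002). PDHA1, the catalytic alpha subunit of pyruvate dehydrogenase, rose by 0.74 (edgeR adjusted p = 0.00334), and LDHB, a lactate dehydrogenase subunit, by 0.93 (adjusted p = 0.00369). Each of these 4 calls held without any single library. The count that rose was 4 without shSOX4 3. Genes of the list that fell numbered 2 without shCon 3, 1 without shSOX4 1 and 2 without both.

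**Figure D5:**
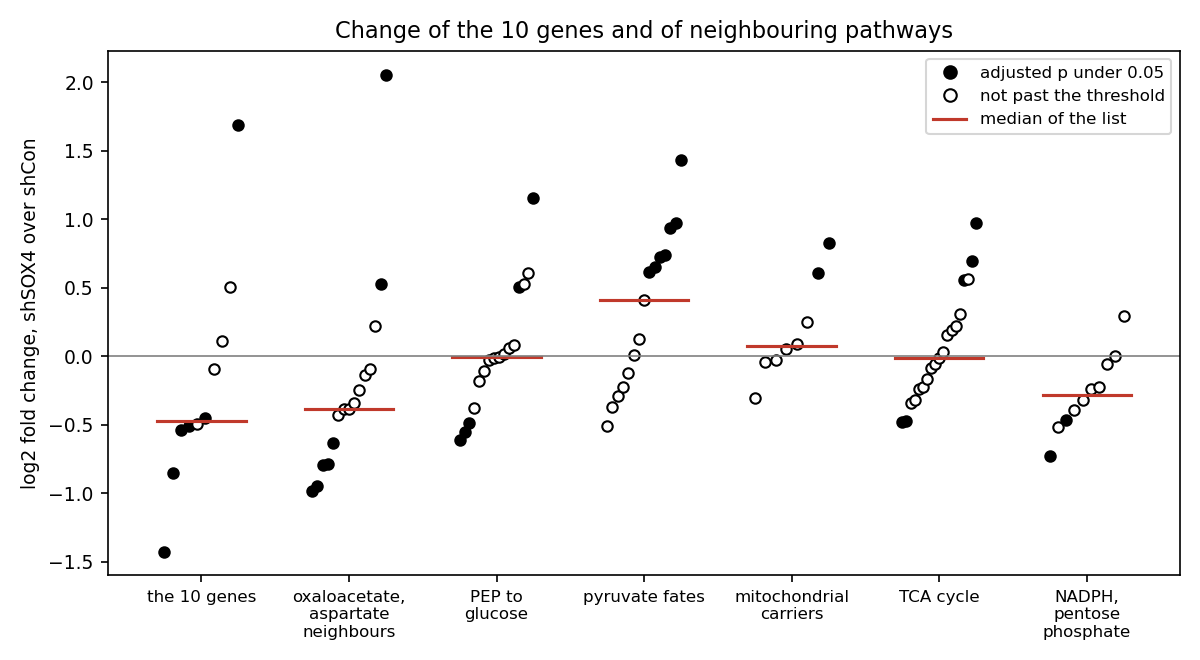
Log2 fold change, shSOX4 over shCon, of the 10 genes and of each measured gene of 6 neighbouring lists. Filled points have an adjusted p under 0.05 in edgeR and red lines are list medians, 0.41 for pyruvate fates and -0.47 for the 10 genes.

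Among enzymes next to oxaloacetate, malate and aspartate, 2 of 15 measured genes rose, 5 fell and 8 did not pass (median -0.38), with 17.0% of all features rising and 15.8% falling. ASS1, which joins aspartate to citrulline, averaged 608 ± 67.0 CPM in shSOX4 and 146 ± 13.2 CPM in shCon (SD, n = 3 each), and rose by 2.05 on the log2 scale (edgeR adjusted p = 6.79e-07). GPT2, the mitochondrial alanine transaminase, fell by 0.98 (edgeR adjusted p = 0.000943). ASNS, which makes asparagine from aspartate, fell by 0.79 (edgeR adjusted p = 0.00169). PSAT1, the transaminase of serine synthesis, fell by 0.79 as well (edgeR adjusted p = 0.00307). These calls held without any single library, while the count that rose was 1 without shCon 1, shSOX4 2 or shSOX4 3.

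Between phosphoenolpyruvate and glucose, 2 of 16 measured genes rose, 3 fell and 11 did not pass (median -0.01). The list holds steps of both directions, hexokinases among them, and pyruvate kinase. The share that passed was near the 32.8% over all features, so the genes named from this list are a description. HK1, a hexokinase, fell by 0.61 on the log2 scale (edgeR adjusted p = 0.00931), and not past the threshold without shSOX4 2 (adjusted p = 0.0691). ALDOC, an aldolase, rose by 1.15 (edgeR adjusted p = 0.00948) at low levels of 4.93 ± 0.435 CPM in shSOX4 and 2.22 ± 0.747 CPM in shCon (SD, n = 3 each). PGK1, phosphoglycerate kinase, rose by 0.50 (edgeR adjusted p = 0.0167), with the call lost without shCon 1 or shSOX4 3 (adjusted p up to 0.0741). ENO1, an enolase, fell by 0.49 (edgeR adjusted p = 0.023), with the call lost without shCon 2, shCon 3, shSOX4 2 or shSOX4 3 (adjusted p up to 0.08). The count that rose was 1 without shCon 1. The count that fell was 1 without shCon 2 or shSOX4 3 and 0 without shSOX4 2. FBP1, fructose bisphosphatase and a marker of gluconeogenic tissues, had 17.7, 16.1 and 15.4 CPM in shSOX4 libraries 1, 2 and 3, against 22.3, 25.4 and 24.6 CPM in shCon libraries 1, 2 and 3, a fall by 0.55 on the log2 scale (edgeR adjusted p = 0.0304). Its call was lost without shCon 2, shSOX4 2 or shSOX4 3. PCK1 and G6PC, the liver and kidney partners of PCK2 and G6PC3, were not analysed here.

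Of 8 mitochondrial carriers of malate, aspartate and related acids, 2 rose and 6 did not pass (median 0.07), a share below the 32.8% called over all features. Both that rose exchange aspartate for glutamate, the step that carries mitochondrial aspartate made by GOT2 to the cytosol. SLC25A12 rose by 0.83 on the log2 scale (edgeR adjusted p = 0.0114), but not without shSOX4 3 (adjusted p = 0.0686). SLC25A13 rose by 0.61 (edgeR adjusted p = 0.0335), with the call lost without shCon 1, shCon 2, shSOX4 2 or shSOX4 3 (adjusted p up to 0.175). The count was thus 1 without shCon 1, shCon 2 or shSOX4 2, and 0 without shSOX4 3.

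Of 19 measured genes of the tricarboxylic acid cycle other than malate dehydrogenase, 3 rose, 2 fell and 14 did not pass (median -0.01), a share below the 32.8% called over all features. Beside DLD, IDH3A, an isocitrate dehydrogenase subunit, rose by 0.70 on the log2 scale (edgeR adjusted p = 0.0306). SUCLG1, the alpha subunit of succinyl-CoA ligase, rose by 0.56 (edgeR adjusted p = 0.0325). SDHA, a succinate dehydrogenase subunit, fell by 0.47 (edgeR adjusted p = 0.0227). The call of SDHA was lost without shCon 2, shSOX4 2 or shSOX4 3 (adjusted p up to 0.101 in edgeR), and the count that fell was 0 in each of these fits. Without shCon 3, shSOX4 2 or shSOX4 3 the count that rose was 1, DLD, with the calls of IDH3A and SUCLG1 lost.

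Of 10 measured genes of NADPH supply other than malic enzyme and of the pentose phosphate pathway, 2 fell and 8 did not pass (median -0.28), with 15.8% of all features falling. PGD, an enzyme of the pentose phosphate pathway, fell by 0.46 on the log2 scale (edgeR adjusted p = 0.0339). Its call was lost without shCon 2, shCon 3, shSOX4 2 or shSOX4 3 (adjusted p up to 0.138 in edgeR), and the count that fell was 1 in each of these fits.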

How the data were processed

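RNA-seq of 6 DU145 libraries was analysed, 3 shSOX4 and 3 shCon, grouped by their labels; columns headed SH and NC were read as these groups. Per the file headers, the deposited table holds read counts per gene, FPKM values, the authors' log2 fold change and the authors' false discovery rate (an adjusted p-value). Per the submitters' processing notes, the build was hg19, and HISAT2, STAR, Bowtie2, MACS2 2.1.1 and deepTools 2.07 were named without roles. Neither the counter nor the annotation release, strand setting or filter is stated there. The deposited counts included 1116 newGene loci, and 22 symbols changed to dates were restored from their gene IDs. Every one of the 13527 features had at least 1 CPM in at least 3 libraries, and filterByExpr removed 0 of them.

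Counts were tested with edgeR 4.0.16 (R 4.3.3), TMM scaling and the quasi-likelihood test with group as the only term, Benjamini-Hochberg adjusted over all features at 0.05. Intervals are 95%. Log2 ratios of 2 genes within a library were compared by an exact two-sided permutation test. Alternatives used DESeq2 1.42.0, limma 3.58.1 (voom, and log2 FPKM with a pseudocount of 1 or 0.1 at a mean of at least 1 FPKM), other scalings, a 1.5-fold threshold (glmTreat), a replicate block and left-out libraries. DESeq2 adjusted p-values came within 1% of the deposited ones for 12077 of 13521 features. The genes and lists were chosen with earlier results of these data known. Genes named were SOX4, ATF4, the 10 genes, called genes of each list (the 4 with the smallest adjusted p where more than 4 passed), and the 5 most correlated with PCK2 and with PC; 2 called genes are not reported here by name. NRL, LRFN4, WDPCP and TRAPPC4 were named for overlapping one of the 10 genes in RefSeq, and FBP1 as a marker. Promoter windows came from RefSeq, GRCh38.p14, and no coordinates were converted. No 2 libraries of the same group held the same counts within sampling noise, and pairs between the groups were not compared.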

Additional observations from a re-analysis of the deposited data

How the results depend on the processing

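PCK2 and PC passed in all 18 alternative fits, and SLC37A4 in all but the 1.5-fold test (adjusted p = 0.173, edgeR glmTreat). Of the 18, the fit without filterByExpr repeats the main fit, since that filter removed 0 features. Over all features 1195 passed the 1.5-fold test, 2928 passed limma on log2(FPKM + 0.1), and 2509 to 4966 passed with 1 library left out. Of the 10 genes, 1 fell under the 1.5-fold test and 2 fell under the replicate block. With 1 library left out, 2 to 5 fell and 1 to 2 rose. Without both shCon 3 and shSOX4 1, 2 rose. The 1.5-fold test left 1 rise and 0 falls among enzymes next to oxaloacetate, 0 rises and 0 falls between phosphoenolpyruvate and glucose, 1 rise at the fates of pyruvate, 0 carriers, 0 rises and 0 falls in the cycle, and 0 NADPH and pentose phosphate genes. With limma on log2(FPKM + 0.1) the counts were 1 carrier, 1 rise and 1 fall in the cycle and 1 NADPH gene. In the cycle, 1 gene rose with total-count scaling and 1 with limma on log2(FPKM + 1). Of the named neighbours, ENO1, SLC25A13, SDHA, IDH3A, SUCLG1 and PGD did not pass with limma on log2(FPKM + 0.1). IDH3A and SUCLG1 also did not pass with total-count scaling or limma on log2(FPKM + 1).

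With 1 library left out, the enzymes next to oxaloacetate gave 1 to 2 rises. In the same fits the steps between phosphoenolpyruvate and glucose gave 1 to 3 rises and 0 to 3 falls. The fates of pyruvate gave 4 to 7 rises and 0 to 2 falls there (2 falls without both). The carriers gave 0 to 3 rises, and the cycle 1 to 4 rises and 0 to 2 falls. The NADPH and pentose phosphate genes gave 1 to 3 falls. ME1 ran from -0.025 without shCon 3 (and -0.0015 without shSOX4 3) to 0.237 without shCon 2. G6PC3 ran from -0.204 without shCon 1 to 0.133 without shCon 3, with 0.0072 without shSOX4 3 and 0.033 without both. The log2 ratio of GOT1 to GOT2 ran from -0.079 without shCon 3 to 0.035 without shSOX4 3. The cause was not tested.

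Libraries with the same replicate number deviated together with correlations of -0.29, 0.16 and -0.29, so the numbers were not taken to pair them. The replicate block gave 1 rise next to oxaloacetate and 1 rise between phosphoenolpyruvate and glucose. It also gave 1 carrier, 1 rise and 0 falls in the cycle and 1 NADPH gene, and ATF4 did not pass under it. With 3 libraries a group, the exact test of a ratio cannot go below 0.1. ME2 and ME1, with the fewest counts of the 10 genes, have the least depth behind them, with 462 to 1435 counts a library for ME2.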
